A study of Columba livia with 12 samples.

Results

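The comparison described here is between liver miRNAs of adult pigeons and those of squabs at the end of the nestling period. It takes every mature miRNA row of the deposited count table, 1039 names, in the 3 libraries of 2-year-old birds (2y) and the 3 libraries of 28-day-old birds (28d), out of 12 libraries in the series. Of these names 608 had a count in at least 1 of the 6 libraries. Over all 12 libraries 345 names had enough counts for testing, and 18 of the 345 had no count at 28d or 2y. The birds were white king pigeons (Columba livia), untreated apart from the ether used at sampling. The 2y birds were the parent generation, in which both sexes were sampled, and the 28d birds came from squabs of mixed sex; which sexes were sequenced is not stated in the labels. A library was made from 1 liver, and liver was taken as a piece of whole tissue, so a difference in the number of cells of a type and a difference in RNA per cell cannot be told apart. The other ages, 1 day (1d) and 14 days (14d), entered the fit to share its estimate of spread. They also entered the choice of the miRNAs tested and the scaling of the libraries. For 1d the labels disagree: titles and stage give 1 day, while the descriptions of replicates 2 and 3 give 2 and 3 days, so means given for 1d may cover more than 1 age. The prefix cli- is left out of miRNA names.

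A miRNA is a short RNA that, loaded into an Argonaute protein, pairs through its seed with messenger RNAs and lowers their translation or stability. Each is cut from a hairpin with a 5p and a 3p arm, of which one is usually kept and the other largely degraded. In vertebrate liver the bulk of miRNA comes from hepatocytes. Endothelial, stellate, bile duct and blood cells add their own miRNAs, and the growing liver also carries miRNAs linked to cell division. Between 28d and 2y a pigeon passes from weaning and fledging to reproductive adulthood.

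No miRNA passed the threshold between 28d and 2y. By the quasi-likelihood test of edgeR, adjusted after Benjamini-Hochberg, 0 of 345 miRNAs, or 0%, had an adjusted p under 0.05, and the smallest adjusted p was 0.139 (miR-181a-3p). With unadjusted p under 0.05 there were 39 miRNAs (11.3% of those tested), 10 higher and 29 lower at 2y. With upper-quartile factors the corresponding split was 29 higher and 13 lower, so the balance of the uncorrected differences depended on the scaling. limma voom also called 0 miRNAs, and DESeq2 called 18, of which 8 were higher and 10 lower at 2y. Levels are given below as CPM, read counts scaled to a common library size with TMM factors, and fold changes on the log2 scale as 2y minus 28d with their SE. The median of all tested log2 fold changes was -0.18, and it lay between -0.15 and 0.02 under the 4 other scalings. With only the 6 libraries of 28d and 2y in filter, scaling and fit, 241 miRNAs were tested and 0 passed. Of these, 18 had an unadjusted p under 0.05 in edgeR, and the median was -0.013.

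A result short of the threshold does not show that levels were equal, so the width of the intervals matters. Of 101 miRNAs with a mean of at least 100 CPM over the 6 libraries, 33 had a 95% interval that lay wholly inside a 2-fold change in either direction, and 83 had one inside a 4-fold change. Over all 345 the counts were 66 and 173. The median SE was 0.35 for the 101 abundant miRNAs and 0.62 for all.

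**Figure D1:**
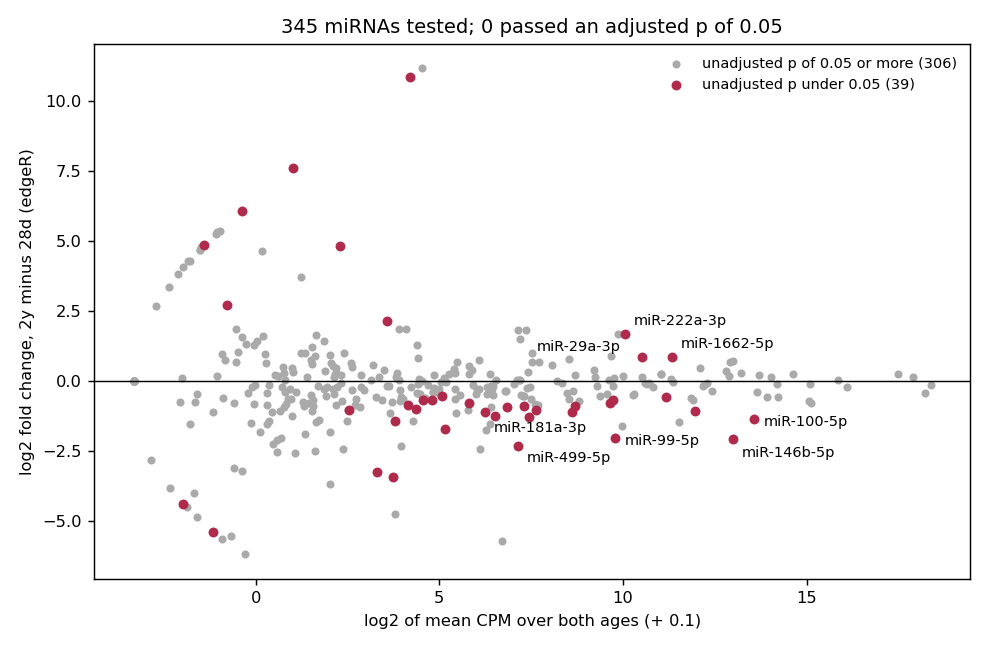
Log2 fold change between 28d and 2y (vertical axis, 2y minus 28d, edgeR) against the log2 of the mean CPM of both ages (horizontal axis) for the 345 miRNAs tested. The 39 red points have an unadjusted p under 0.05 and none passed after adjustment.

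The 28d libraries differed more among themselves than the 2y libraries did. Total counts were 3100273 to 9049395 at 28d and 7613374 to 9393075 at 2y, and 303 to 421 names had a count in a 28d library against 347 to 381 in a 2y library. Over the 101 abundant miRNAs the median absolute difference between 2 libraries was 0.25 to 0.30 log2 units within 2y. It was 0.33 between 28d replicates 2 and 3, but 0.80 and 0.83 between 28d replicate 1 and those libraries. Replicate 1 lay 0.90 to 1.00 from the 2y libraries, and 28d replicates 2 and 3 lay 0.35 to 0.48 from them. By Pearson correlation of log2 CPM replicate 1 did not stand apart in this way. It was 0.916 for 28d replicates 1 and 2, 0.835 for 1 and 3, and 0.883 for 2 and 3. The TMM factors, on which the differences depend, were 0.953, 0.516 and 0.512 in 28d replicates 1 to 3. The SD of log2 CPM was larger at 28d than at 2y for 78 of the 101 miRNAs, with medians of 0.59 and 0.25. Among these 101, replicate 1 was at least 4-fold above both other 28d libraries for miR-30c-5p and miR-99-5p. It was at least 4-fold below them for let-7i-5p, let-7g-5p and the conserved name miR-2404-2-5p. Less abundant miRNAs, such as miR-33-3p and miR-9-5p whose values are given below, were not part of this comparison. Leaving out 28d replicate 1 also re-estimates the scaling and the filter. The median of all log2 fold changes was then 0.25 over the 401 miRNAs kept, 0.28 over the 345 within that fit, and 0.12 when the fit was held to the 345. Values given below without this library come from the first of these fits and are to be read against its median of 0.28.

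**Figure D2:**
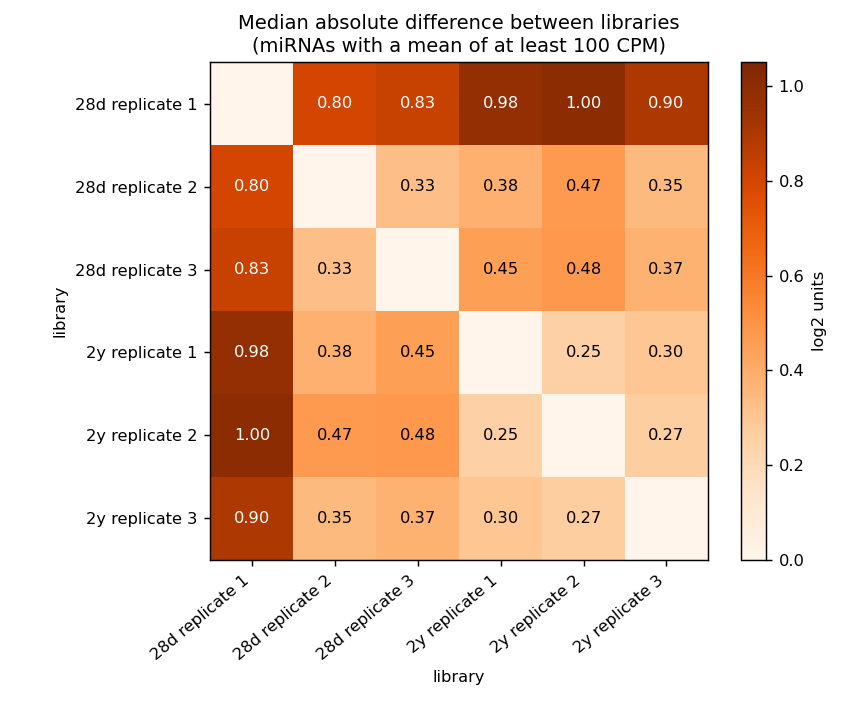
Median absolute difference in log2 CPM between each pair of the 6 libraries over the 101 miRNAs with a mean of at least 100 CPM. The row of 28d replicate 1 holds values of 0.80 to 1.00, while the other pairs lie between 0.25 and 0.48.

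The same few miRNAs led the liver profile at both ages. Shares are raw percentages of a library's counts, which do not depend on the scaling. miR-26-5p, a miRNA of many differentiated tissues, held 14.3, 21.1 and 25.6% of the counts in 28d replicates 1 to 3 and 24.2, 17.5 and 22.5% in the 2y libraries. miR-148a-3p, abundant in hepatocytes, held 19.1, 25.7 and 17.7% at 28d and 18.0, 18.0 and 15.8% at 2y. The groups overlapped for both, and 28d replicate 1 had the lowest share of miR-26-5p. The fitted differences were -0.12 ± 0.39 for miR-26-5p (95% interval -1.0 to 0.75) and -0.43 ± 0.31 for miR-148a-3p (-1.11 to 0.25). With the total count alone the difference of miR-26-5p was 0.07.

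miR-22-3p, another miRNA widely present in differentiated cells, held 7.51, 16.6 and 14.9% at 28d and 15.3, 14.4 and 20.3% at 2y. miR-143-3p, typical of smooth muscle and fibroblasts, held 5.57, 11.1 and 11.6% at 28d and 9.69, 16.5 and 13.4% at 2y. Both were lowest in 28d replicate 1, and the other 5 libraries overlapped. Their log2 fold changes were 0.15 ± 0.45 (adjusted p = 0.961) and 0.26 ± 0.45 (adjusted p = 0.875).

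The miR-30 family, abundant in differentiated epithelia, gave the narrowest interval among the leading miRNAs. miR-30a-5p stood at 60598, 60110 and 54369 CPM at 28d and at 57245, 60693 and 63992 CPM at 2y. Its log2 fold change was 0.06 ± 0.21 with a 95% interval of -0.41 to 0.52, inside a 2-fold change, and it was 0.53 without 28d replicate 1. It had a mean of 18093 CPM at 1d and 19769 CPM at 14d. miR-30e-5p was at 101928, 61023 and 61334 CPM at 28d and 59868, 64071 and 71192 CPM at 2y, so that replicate 1 alone stood above the rest. Its difference was -0.20 ± 0.30, and 0.54 without 28d replicate 1. miR-30d-5p lay between 24891 and 38980 CPM in all 6 libraries.

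**Figure D3:**
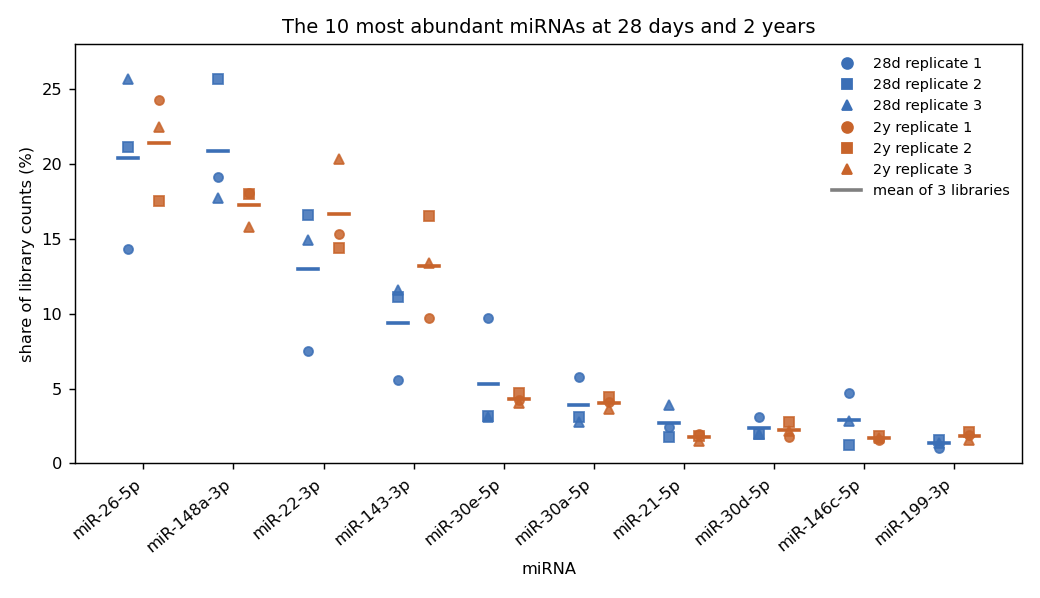
Share of library counts (vertical axis, percent) of the 10 miRNAs most abundant over the 6 libraries, with 1 symbol per library and a bar for the mean of each age. 28d replicate 1 (blue circles) is lowest for miR-26-5p, miR-22-3p and miR-143-3p and highest for miR-30e-5p.

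Beside the percentages of miRNAs whose libraries did not overlap, family counts can be read. All 2y libraries lay above all 28d libraries for 16 of 345 miRNAs (4.64%) and below for 37 (10.7%) on the TMM scale. With the total count alone these were 21 and 24, and 11 and 20 miRNAs were separated the same way on both scales. On the TMM scale, 7 of 108 miRNAs averaging 100 CPM or more in one age or the other were above and 18 below. Of those averaging at least 100 CPM in one age or the other, the ones separated on both scales were miR-92-3p, miR-1662-5p, miR-30c-3p and the conserved name miR-146a-5p, which were higher at 2y. miR-16a-5p, miR-363-3p, miR-30d-3p, miR-148a-5p, miR-499-5p, miR-15b-5p, miR-181a-3p and miR-551b-3p were lower at 2y. None of these passed the test across miRNAs. The conserved name miR-146a-5p had counts of 0, 0 and 343 at 28d and 1194, 1550 and 1634 at 2y. It was also at 0 in some younger libraries, with 0, 1231 and 746 counts at 1d and 0, 0 and 1116 at 14d. The miR-146a-5p row without the conserved label overlapped between 28d and 2y.

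The smallest p of the comparison belonged to a passenger arm of the miR-181 family, a family that tunes lymphocyte signalling and differentiation in mammals. miR-181a-3p was at 112, 95.8 and 98.0 CPM at 28d and at 53.8, 45.4 and 43.7 CPM at 2y. The groups did not overlap and the libraries of each age were close together. Its log2 fold change was -1.10 ± 0.21 (unadjusted p = 0.000404, adjusted p = 0.139), and DESeq2 gave an adjusted p of 8.95e-06. The main arm, miR-181a-5p, was at 4733, 15599 and 22832 CPM at 28d and 10179, 11262 and 11834 CPM at 2y, with a difference of -0.38 ± 0.44. All 4 tested members of the family had a negative log2 fold change, with a median of -0.74, beside -0.18 over all miRNAs. Without 28d replicate 1 that median was -0.30 beside 0.28, and miR-181a-3p was at -0.58. Without 28d replicate 3 the differences of miR-181a-5p and miR-181b-5p were 0.13 and 0.41. The remaining member, miR-181b-3p, had counts of 26, 0 and 0 at 28d and 1, 1 and 0 at 2y, so its sign rests on 28d replicate 1.

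In the hepatocyte-enriched list 8 of 9 names were tested and 0 passed, 4 with positive and 4 with negative differences, and the median was -0.11 beside -0.18 for all miRNAs, or 0.47 beside 0.28 without 28d replicate 1. The list's share of counts was 20.5, 26.4 and 18.3% at 28d and 19.3, 19.2 and 16.6% at 2y. miR-148a-3p made up 95.1% of that share over the 6 libraries. miR-148a-5p, the passenger of miR-148a-3p, was at 162, 116 and 104 CPM at 28d and 74.8, 44.4 and 43.3 CPM at 2y. Its libraries did not overlap, and its log2 fold change was -1.24 ± 0.29 (adjusted p = 0.264; DESeq2 adjusted p = 0.0243), or -0.61 without 28d replicate 1. Its mean was 665 CPM at 1d and 352 CPM at 14d. miR-215-5p, known from liver and gut epithelium and in mammals tied to p53, was at 525, 373 and 448 CPM at 28d. At 2y it was at 3327, 82.1 and 869 CPM. The adult birds thus spanned levels both below and above every 28d bird, and the difference was 1.67 ± 0.88 (adjusted p = 0.421). It was 0.10 without 2y replicate 1 and 0.47 with limma voom.

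miRNAs that restrain the cell cycle and those that promote it were both examined. The miR-15 and miR-16 group, which in mammals targets cyclins, had negative differences for all 10 tested members. Their median was -0.72, 5 of 10 had every 2y library below every 28d library beside 10.7% of all miRNAs, and 0 passed. That background includes names with few or no counts. Among miRNAs averaging 100 CPM or more in one age or the other it was 18 of 108. Among the 5 were passenger arms with few counts. miR-15b-3p had 7, 5 and 2 counts at 28d and 0, 1 and 1 at 2y, and miR-15c-3p 7, 2 and 1 against 2, 2 and 3. With the total count alone miR-15a-5p overlapped between the ages, while miR-16a-5p and miR-15b-5p did not. Without 28d replicate 1 the median of the group was -0.18 beside 0.28 for all miRNAs. miR-16a-5p was at 2605, 2716 and 2930 CPM at 28d and at 1962, 1879 and 1731 CPM at 2y. Libraries of an age agreed within narrow limits, the groups did not overlap, and the log2 fold change was -0.57 ± 0.19 (adjusted p = 0.282). miR-15a-5p was at 968, 1208 and 952 CPM at 28d and 687, 662 and 619 CPM at 2y, a difference of -0.67 ± 0.18 (adjusted p = 0.268; DESeq2 adjusted p = 0.0262). Without 28d replicate 1 the differences of miR-16a-5p and miR-15a-5p were -0.15 and -0.29. miR-16b-5p overlapped between the ages. The share of the group's counts was 0.452, 0.283 and 0.263% at 28d and 0.259, 0.248 and 0.205% at 2y.

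The miR-17-92 family and its paralogs, known for promoting proliferation, had 19 tested members. Of these 0 passed, 3 had all 2y libraries above and 3 all 2y libraries below those of 28d, and the median log2 fold change was -0.32. That median was -0.03 with upper-quartile factors, and 0.29 beside 0.28 for all miRNAs without 28d replicate 1. miR-92-3p, the most abundant member, was at 3208, 8660 and 6753 CPM at 28d and 10416, 8772 and 11554 CPM at 2y. The groups were separated by a margin smaller than the spread at 28d, and the difference was 0.72 ± 0.45 (adjusted p = 0.476). At 1d and 14d its means had been 19639 and 43944 CPM. miR-17-5p was at 1005, 850 and 978 CPM against 1026, 1024 and 1205 CPM, higher in every adult library by little. With the total count alone it overlapped between the ages. Its difference was 0.20 ± 0.20, or 0.70 without 28d replicate 1. miR-363-3p, from the paralog cluster, was at 635, 473 and 506 CPM at 28d and 270, 219 and 390 CPM at 2y, a difference of -0.88 ± 0.28 (adjusted p = 0.282; DESeq2 adjusted p = 0.0328), or -0.30 without 28d replicate 1.

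let-7 miRNAs accompany differentiation in animals. Of 14 tested members 0 passed, with 6 positive and 8 negative differences. The 3 that had all 2y libraries below those of 28d were passenger arms, let-7d-3p, let-7f-3p and let-7g-3p. The median was -0.30 with TMM, 0.00 with upper-quartile factors and 0.22 beside 0.28 for all miRNAs without 28d replicate 1. It covers main and passenger arms alike, and let-7a-3p and let-7e-3p, with nearly the same counts, both enter it. The family's share of counts was 0.616, 1.18 and 1.57% at 28d and 2.37, 1.53 and 1.44% at 2y, with 28d replicate 1 lowest. let-7a-5p was at 2287, 7162 and 8235 CPM at 28d and 13878, 6023 and 8528 CPM at 2y, a difference of 0.69 ± 0.45 (adjusted p = 0.498). let-7e-5p was at 555, 1977 and 3047 CPM against 4651, 2643 and 2935 CPM, and let-7d-5p at 141, 387 and 291 against 666, 280 and 470 CPM. In all 3 the groups overlapped and 2y replicate 1 was the highest library.

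miR-221 and miR-222, linked in mammals to cell cycle entry, had far higher levels in the youngest birds, where miR-222a-3p had means of 15507 CPM at 1d and 6541 CPM at 14d. miR-222a-3p was at 360, 621 and 521 CPM at 28d and at 2989, 571 and 1281 CPM at 2y. The adult values spanned a wide range, of which the lowest lay within the 28d libraries. Its log2 fold change was 1.69 ± 0.57 (adjusted p = 0.282; DESeq2 adjusted p = 0.0243), and it was 0.90 without 2y replicate 1. miR-221-3p was at 316, 668 and 747 CPM at 28d and 1710, 647 and 851 CPM at 2y, again highest in 2y replicate 1, and its difference was 0.89 ± 0.44 (adjusted p = 0.397). Of the 4 tested members 0 passed, with 3 positive differences and 1 negative. The negative one, miR-221-5p, ranged from -1.94 to 0.40 when 1 library was left out, and was positive only without 28d replicate 1.

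The miR-29 family, whose known mammalian targets include collagen messenger RNAs, had positive differences for all 4 tested members, of which 0 passed. The median was 0.76 beside -0.18 for all miRNAs, and it lay between 0.61 and 1.07 under the 4 other scalings. miR-29a-3p was at 1395, 761 and 925 CPM at 28d and at 1728, 2030 and 1882 CPM at 2y. All 2y libraries were above all 28d libraries on the TMM scale, and 28d replicate 1 was nearest to them. With the total count alone miR-29a-3p overlapped between the ages. Its log2 fold change was 0.87 ± 0.29 (adjusted p = 0.282; DESeq2 adjusted p = 0.0243). miR-29b-3p was at 346, 118 and 181 CPM at 28d and 345, 310 and 298 CPM at 2y, where replicate 1 of 28d reached the adult range, and its difference was 0.56 ± 0.36 (adjusted p = 0.487). Without 28d replicate 1 both passed, with log2 fold changes of 1.63 ± 0.24 and 1.56 ± 0.24 and an edgeR adjusted p of 0.0202 for each. With that library left out and the total count alone, 0 miRNAs passed. The means of miR-29a-3p were 146 CPM at 1d and 276 CPM at 14d.

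Other miRNAs of stromal and vascular cells were examined next. The mesenchymal list, made of miR-214, miR-199, miR-145 and miR-143, which mark smooth muscle, fibroblasts and stellate cells, had 8 tested members, of which 0 passed and 0 were separated between the ages. Its share was 7.58, 13.0 and 13.2% at 28d and 12.1, 19.1 and 15.3% at 2y. miR-199-3p was at 10794, 31019 and 26916 CPM at 28d and 26392, 28447 and 27224 CPM at 2y, so that only 28d replicate 1 stood apart. miR-145-3p was at 1386, 407 and 534 against 453, 567 and 607 CPM, and its difference turned from -0.52 to 0.68 without 28d replicate 1. miR-126, made in endothelium, was nearly level on its 3p arm, with 15930, 23305 and 18955 CPM at 28d and 16408, 17292 and 19930 CPM at 2y. Its 5p arm was at 26942, 23142 and 18721 CPM at 28d and 15471, 13443 and 17291 CPM at 2y. This arm was lower in every adult library on the TMM scale, but not with the total count alone. The difference was -0.57 ± 0.30 (adjusted p = 0.421), and -0.01 without 28d replicate 1.

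miRNAs of immune cells varied chiefly among the 28d birds. miR-146b-5p, induced by inflammatory signals in mammals, was at 19619, 3157 and 16962 CPM at 28d and at 2996, 3855 and 2541 CPM at 2y. Birds 1 and 3 of 28d were far above the adults and bird 2 lay among them. The log2 fold change was -2.08 ± 0.55 (adjusted p = 0.268; DESeq2 adjusted p = 0.0243). Without 28d replicate 2 it was -2.52 ± 0.29 and passed (adjusted p = 0.00437), and without 28d replicate 1 it was -1.13. miR-146c-5p was likewise lowest in 28d bird 2, with 49258, 24378 and 55213 CPM at 28d and 22290, 25470 and 30487 CPM at 2y (-0.72 ± 0.36, adjusted p = 0.397), or -0.11 without 28d replicate 1. miR-142-3p, made in blood-forming cells, was at 1481, 549 and 1006 CPM at 28d and 578, 576 and 596 CPM at 2y. The adult values were almost identical, the 28d values were not, and the difference of -0.79 ± 0.34 (adjusted p = 0.393) became 0.07 without 28d replicate 1. On the unchanged CPM scale the mean of 28d replicates 2 and 3 stayed above that of 2y. The whole leukocyte list of 9 names, all tested, had 0 passing, with 4 positive and 5 negative differences. Its share was 8.99, 2.20 and 4.74% at 28d and 2.80, 3.18 and 2.65% at 2y. Among the 28d birds, both arms of miR-142 and miR-146b and also miR-146c-5p were lowest in bird 2. In the same list miR-155-5p and both arms of miR-146a were lowest in bird 1, and miR-146c-3p in bird 3, on the CPM scale. The part of white blood cells in these values was not tested.

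miR-21 is raised by injury and growth signals in mammals. miR-21-3p was at 611, 367 and 637 CPM at 28d and 283, 221 and 247 CPM at 2y. These values did not overlap, but with the total count alone the ages did. Its log2 fold change was -1.11 ± 0.33 (adjusted p = 0.282, DESeq2 adjusted p = 0.0445). Its abundant partner miR-21-5p was at 25332, 34329 and 76136 CPM at 28d and 27325, 24779 and 26254 CPM at 2y. Here 28d replicate 3 stood well above the others and replicate 1 lay within the adult range (-0.79 ± 0.39, adjusted p = 0.397). The difference of miR-21-5p was -0.19 without 28d replicate 3, and that of miR-21-3p was -0.54 without 28d replicate 1.

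Several differences shrank or turned when 28d replicate 1 was left out and the scaling re-estimated. The list built on miR-100, with its relatives miR-99, miR-10 and miR-125, had 9 tested members, 5 with positive and 4 with negative differences, of which 0 passed, and its share was 5.91, 1.73 and 1.58% at 28d and 2.43, 2.53 and 1.73% at 2y. miR-100-5p, of the miR-99 and miR-100 family that targets mTOR in mammals, was at 34404, 9685 and 8501 CPM at 28d and 7141, 6767 and 6774 CPM at 2y. Every 2y library was below every 28d library on the TMM scale, but not with the total count alone. The fitted difference of -1.35 ± 0.46 (adjusted p = 0.282) became 0.04 without 28d replicate 1. miR-99-5p was at 3467, 381 and 417 CPM at 28d and 373, 374 and 295 CPM at 2y, a difference of -2.04 ± 0.74 that turned to 0.25. miR-30c-5p was at 9464, 1823 and 1802 against 1397, 1482 and 1859 CPM, and its -1.47 ± 0.72 also turned to 0.25. miR-2954-3p, a Z-linked miRNA with male-biased expression in birds, was at 9620, 3172 and 3315 CPM at 28d and 2590, 2140 and 2977 CPM at 2y, a difference of -1.06 ± 0.42 that turned to 0.10. On the unchanged CPM scale the means of 28d replicates 2 and 3 stayed above those of 2y, at 9093 against 6894 CPM for miR-100-5p, 399 against 347 for miR-99-5p, 1813 against 1579 for miR-30c-5p and 3243 against 2569 for miR-2954-3p. The sign of these 4 without 28d replicate 1 thus depended on the scaling.

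**Figure D4:**
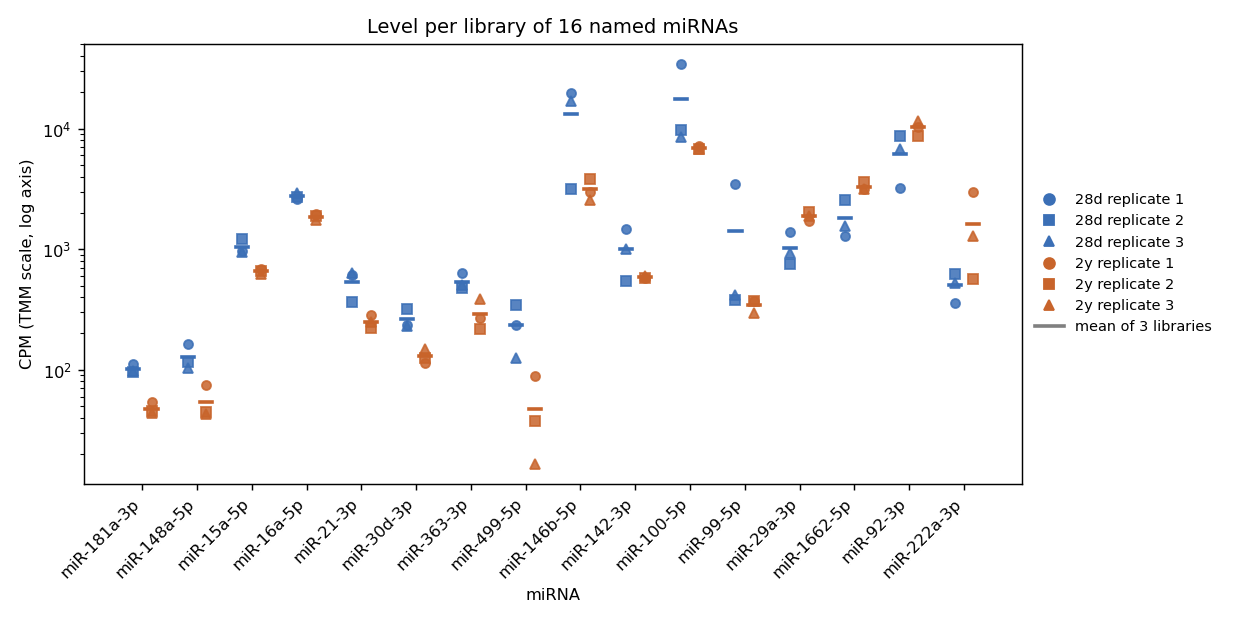
CPM per library (vertical log axis) of 16 miRNAs, with blue symbols for 28d, orange symbols for 2y and a bar for each mean of 3 libraries. The ages are separated with little spread for miR-181a-3p, miR-15a-5p and miR-16a-5p, while for miR-100-5p and miR-99-5p 28d replicate 1 lies far above the other libraries.

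The miR-34 list, a family induced by p53 in mammals, had 5 tested members, of which 0 passed and 0 were separated between the ages. In the lipid metabolism list, 7 of 10 names were tested and 0 passed. miR-33-5p, which lies within a gene for a sterol regulatory factor in vertebrates, was at 290, 121 and 130 CPM at 28d and 112, 195 and 156 CPM at 2y and overlapped (-0.23 ± 0.43); it was chosen after its values were seen. The other arm, miR-33-3p, was at 312, 8.56 and 27.2 CPM at 28d and 36.8, 25.4 and 3.56 CPM at 2y, so only 28d replicate 1 was high. In that library miR-33-3p had 2691 counts against 2499 of miR-33-5p. At 14d it also had more, with 347, 525 and 472 against 143, 143 and 108 counts. The difference of miR-33-3p, -2.41 ± 1.14, turned to 0.79 without 28d replicate 1. miR-27b-3p, which acts on lipid genes in mouse liver, was at 4602, 6381 and 7318 against 4287, 4861 and 5289 CPM (-0.34 ± 0.22, interval -0.84 to 0.15). miR-23b-3p, from the same cluster, was at 1320, 632 and 691 against 764, 528 and 640 CPM, and its difference of -0.45 turned to 0.39 without 28d replicate 1. On the unchanged CPM scale 28d replicates 2 and 3 still averaged above 2y, so here too the sign depended on the scaling.

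Bile duct and other epithelial miRNAs overlapped between the ages. miR-200a-3p was at 701, 304 and 332 CPM at 28d and 257, 306 and 300 CPM at 2y, and miR-200b-3p at 213, 212 and 140 against 176, 101 and 210 CPM. Their differences of -0.63 and -0.21 turned to 0.32 and 0.28 without 28d replicate 1, where the scaling was re-estimated. On the unchanged CPM scale the mean of 28d replicates 2 and 3 stayed above that of 2y for both. miR-429-3p of the same family had a difference of 0.04 ± 0.33. Of the 11 tested names in this list 0 passed and 0 were separated.

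miRNAs that mark tissues other than liver were detected at both ages. The muscle list had 6 tested members, all with negative differences and a median of -2.01, of which 0 passed; its summed share was 0.0560 to 0.188% at 28d and 0.0341 to 0.0446% at 2y. miR-499-5p, from an intron of a myosin gene, was at 236, 341 and 125 CPM at 28d and 88.3, 37.6 and 16.7 CPM at 2y (-2.30 ± 0.99, adjusted p = 0.397). miR-499-3p was at 29.9, 26.7 and 15.8 CPM against 3.69, 2.16 and 0.937 CPM, and miR-1a-3p at 40.6, 4.94 and 7.58 against 1.11, 1.85 and 2.62 CPM; DESeq2 called both (adjusted p 0.0155 and 0.0299), and they were chosen after their values were seen. miR-133a-3p was at 418, 673 and 3421 CPM against 383, 544 and 558 CPM, high in 28d replicate 3 alone, and its difference of -1.60 ± 0.77 was -0.14 without that library. The neural list had a share of 0.0339% in 28d replicate 1 and 0.0015 to 0.0038% in the other 5 libraries, with miR-9-5p at 305 CPM in that library and 21.5 to 41.6 CPM elsewhere; the difference of miR-9-5p was -1.75, and 0.97 without that library. The pancreas list had 4 tested members with 0 passing. Its member miR-375-3p, of pancreatic islets, was at 92.8, 209 and 576 CPM at 28d and 233, 394 and 256 CPM at 2y. The part of tissue other than liver in these values was not tested.

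Among miRNAs known from birds and other non-mammals, miR-1662-5p was at 1275, 2577 and 1566 CPM at 28d and 3140, 3587 and 3187 CPM at 2y. All adult libraries lay above all 28d libraries on both scales, and the difference was 0.87 ± 0.30 (adjusted p = 0.282; DESeq2 adjusted p = 0.0243). miR-1388-3p was at 57.6, 119 and 189 CPM at 28d and 289, 304 and 141 CPM at 2y, which overlapped (1.01 ± 0.48). The list of 15 tested names had 0 passing and a median of 0.10. Of the 502 conserved names 56 were tested and of the 213 predicted ones 53, together about 0.1% of the counts of the 6 libraries, and 0 of either class passed.

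Of the names with a count, 391 had one at both ages, 124 at 28d alone and 93 at 2y alone. Only 1 name had counts in all 28d libraries and none in the 2y libraries, the predicted miR-16-5p with 1, 1 and 63 counts, and 4 had counts in all 2y libraries and none at 28d. Of the 4, miR-9623-5p had 11, 30 and 26 counts at 2y, and by a floor of 3 counts in each 28d library it was at least 3.57-fold higher at 2y. miR-153b-5p and both arms of the conserved name miR-12331 had 1 to 17 counts per adult library. These floors cover counting error only.

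The balance of the 2 arms of a hairpin was compared as well, because the ratio of 2 counts in 1 library does not depend on scaling. Of 147 hairpins with both arms named, 83 had a mean of at least 10 counts on each arm. limma on the log2 ratio of 5p to 3p counts called 0 of 83 (0%), and 11 had an unadjusted p under 0.05. All 2y ratios lay above all 28d ratios for 12 hairpins (14.5%) and below for 4 (4.82%). The hairpins named here were chosen after their values were seen.

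miR-30d leaned to its 5p arm by a log2 ratio of 7.10, 6.88 and 7.39 at 28d and 7.76, 8.24 and 8.01 at 2y, a difference of 0.88 (95% interval 0.11 to 1.65, limma adjusted p = 0.296). Its passenger miR-30d-3p was at 236, 322 and 233 CPM against 115, 125 and 150 CPM. miR-1662 had ratios of 7.55, 7.63 and 7.32 at 28d and 8.42, 8.21 and 8.13 at 2y. miR-145 went from 0.91, 0.78 and 0.65 to 1.39, 1.59 and 1.51, and miR-17 from 3.32, 4.03 and 3.85 to 4.42, 4.26 and 4.38. In these 4 hairpins the adult ratios lay further toward 5p in every library.

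miR-365 and miR-338b kept their 3p arms at both ages. miR-365 had log2 ratios of -8.50, -8.96 and -8.41 at 28d and -8.00, -7.46 and -7.66 at 2y, and miR-338b -6.08, -6.12 and -5.99 against -5.17, -5.61 and -5.57. Their 5p arms had few counts, so these ratios are uncertain. miR-365-5p had 22, 2 and 1 counts at 28d and 6, 11 and 10 at 2y. miR-338b-5p had 18, 5 and 2 counts at 28d and 13, 9 and 14 at 2y. The counts of miR-338a-3p and miR-338b-3p lay within 10% of each other in each of the 6 libraries, so reads may be shared and the ratio of miR-338b is uncertain. In miR-30c, miR-99 and miR-221 the 28d ratios of replicate 1 stood apart, at 7.16, 5.86 and -0.15, while replicates 2 and 3 had 3.29 and 3.41, 3.01 and 3.13, and -4.09 and -3.93. The adult ratios of these 3 hairpins were 2.75 to 2.84, 2.28 to 2.62 and -4.90 to -4.26. The ratios of miR-30c and miR-99 contain the same 5p counts in which 28d replicate 1 stood apart in level. That of miR-221 contains miR-221-5p, which had 2454, 119 and 77 counts at 28d. The 3 ratios are therefore not a separate observation of the deviation of 28d replicate 1.

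**Figure D5:**
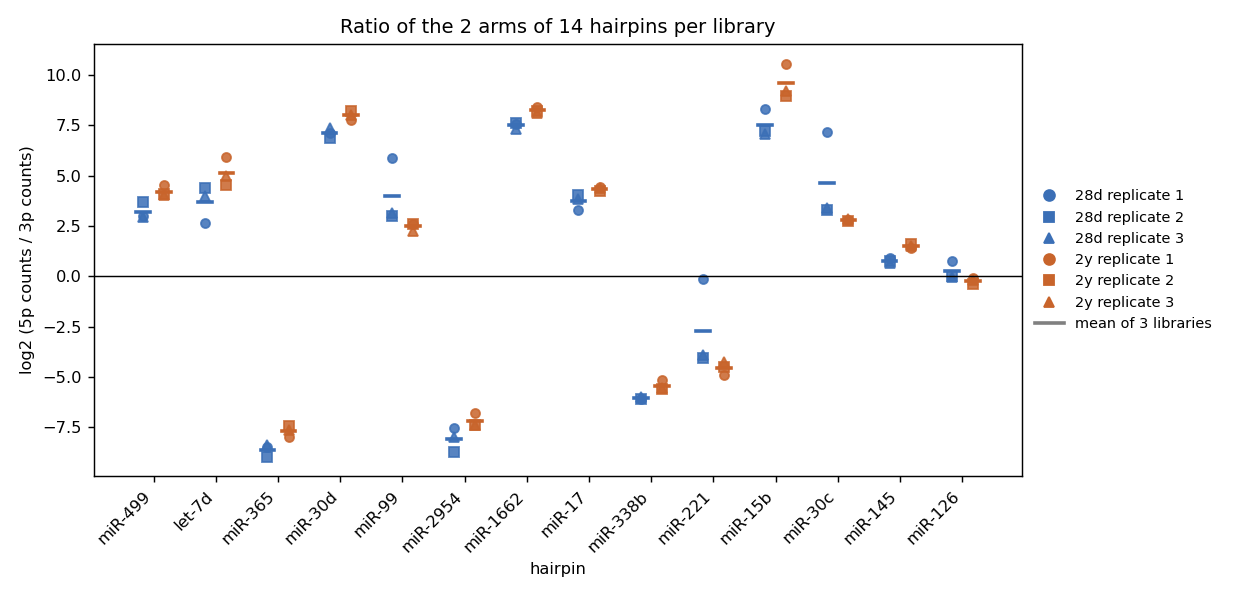
Log2 ratio of 5p to 3p counts per library (vertical axis, values above 0 mean more 5p) for 14 of the 16 hairpins whose 28d and 2y libraries did not overlap, with blue for 28d and orange for 2y. Most 2y ratios lie slightly higher, and 28d replicate 1 stands apart for miR-99, miR-221 and miR-30c.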

How the data were processed

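Raw counts of reads for each mature miRNA were deposited, per the file headers, with 1 column named for each library. Per the labels' protocols, RNA of 10 to 45 nt was gel-selected and sequenced as 50 bp single-end reads, with 1 bird per library. The submitters' processing notes list Bowtie, without its version; genome build, counting program and handling of multiply matching reads: not given in the sources used here. Reads carry no molecular identifiers.

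The main test used edgeR 4.0.16 (R 4.3.3): filterByExpr by age (345 of 1039 names kept), TMM scaling, a robust quasi-likelihood fit over all 12 libraries with 1 mean per age, and the contrast of 2y minus 28d with Benjamini-Hochberg adjustment. The common biological coefficient of variation was 0.807. Adjusted p values are from this test unless another tool is named. The test gives no SE, so each SE was derived as the absolute log2 fold change divided by the square root of its F statistic. The 95% intervals of log2 fold changes were formed from this SE. A count of 0 allows 3 counts, 0.348 to 1.90 CPM by library. Arm ratios were tested with limma 3.58.1, pseudocount 0.5. DESeq2 1.42.0 and limma voom were alternatives. Scripts were tested on simulated data.

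Libraries of an age differed far beyond sampling noise. Deviations of same-numbered 28d and 2y libraries showed no clear pairing. An exact permutation test of 3 against 3 libraries cannot go below 0.1, so shares were not tested. Members and lists were chosen with earlier results of these data known. The naming rule took the 10 most abundant miRNAs and up to 3 members per list with at least 100 CPM by smallest adjusted p; its part for called miRNAs gave no name. Pairs with counts within 10% of each other in the 6 libraries (miR-107-3p with miR-103-3p, miR-30e-3p with miR-30a-3p, let-7e-3p with let-7a-3p) are uncertain singly.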

Additional observations from a re-analysis of the deposited data

How the results depend on the processing

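No miRNA was called with edgeR under any scaling or filter, with limma voom, with only the 6 libraries or with the replicate block. The smallest edgeR adjusted p was 0.139 in the main fit and 0.168 with the replicate block. DESeq2 called 18. Leaving out 1 library of 28d or 2y gave 0 to 3 calls, among them miR-29a-3p, miR-29b-3p and miR-124-3p without 28d replicate 1, miR-146b-5p without 28d replicate 2 and miR-217-5p without 28d replicate 3. miR-124-3p had counts of 117, 0 and 0 at 28d and 11, 15 and 6 at 2y, and miR-217-5p 0, 0 and 135 against 44, 115 and 28, so these calls are against libraries at 0. With the same 345 miRNAs tested, an alternative chosen after seeing the data, the range was again 0 to 3. Arm ratios gave 0 calls under all alternatives, edgeR's test of arms included. Deviations of same-numbered 28d and 2y libraries correlated at -0.0685, 0.115 and 0.0297, and those of differently numbered ones at -0.123 to 0.0971. No pairing by number was seen, but with 3 libraries per age these correlations cannot exclude one.

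Of the 57 named miRNAs 34 kept the sign of their log2 fold change under every alternative run and 23 did not, 17 of them without 28d replicate 1, where the scaling was also re-estimated; none of these 23 was called. Leaving out 1 library, the values ranged from -1.68 to 0.0386 for miR-100-5p, from -0.18 to 0.20 for miR-126-3p, from -1.07 to 0.0711 for miR-142-3p, from -0.80 to 0.68 for miR-145-3p, from -0.56 to 0.12 for miR-16b-5p, from -0.39 to 0.13 for miR-181a-5p, from -0.39 to 0.41 for miR-181b-5p, from -0.82 to 0.32 for miR-200a-3p, from -0.42 to 0.28 for miR-200b-3p, from -0.70 to 0.21 for miR-214-3p, from -0.13 to 0.51 for miR-22-3p, from -1.94 to 0.40 for miR-221-5p, from -0.62 to 0.39 for miR-23b-3p, from -0.26 to 0.22 for miR-26-5p, from -1.31 to 0.10 for miR-2954-3p, from -1.84 to 0.25 for miR-30c-5p, from -0.19 to 0.28 for miR-30d-5p, from -0.32 to 0.54 for miR-30e-5p, from -3.0 to 0.79 for miR-33-3p, from -0.22 to 0.96 for miR-375-3p, from -0.20 to 0.31 for miR-429-3p, from -2.24 to 0.97 for miR-9-5p, from -2.47 to 0.25 for miR-99-5p. With all libraries kept, 6 turned positive. miR-126-3p was 0.0231 with relative log expression factors, 0.176 with upper-quartile factors, 0.0598 with TMM without the 10 most abundant, 0.133 with a filter of 10 CPM in 3 libraries, 0.0232 with DESeq2, 0.10 with only the 6 libraries. miR-181b-5p was 0.0516 with limma voom. miR-200b-3p was 0.0513 with upper-quartile factors. miR-26-5p was 0.0686 with the total count alone, 0.00997 with relative log expression factors, 0.164 with upper-quartile factors, 0.0536 with TMM without the 10 most abundant, 0.101 with no filter, 0.164 with a filter of 10 CPM in 3 libraries, 0.00997 with DESeq2, 0.0216 with limma voom, 0.12 with only the 6 libraries. miR-30d-5p was 0.0303 with relative log expression factors, 0.194 with upper-quartile factors, 0.0614 with TMM without the 10 most abundant, 0.0013 with no filter, 0.145 with a filter of 10 CPM in 3 libraries, 0.0303 with DESeq2, 0.105 with only the 6 libraries. miR-30e-5p was 0.101 with upper-quartile factors. The cause was not tested. Depth limits low miRNAs: a count of 0 allows up to 1.90 CPM in the shallowest library.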

Other observations

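miR-456 switched arms between libraries in the deposited table. In 2y replicate 2 the table gives 893 counts of miR-456-5p and 0 of miR-456-3p, whereas 2y replicates 1 and 3 have 1048 and 997 counts of miR-456-3p and 0 of miR-456-5p. The 28d libraries have 533, 434 and 318 counts of the 3p name and 0 of the 5p name. The same alternation occurs at the younger ages, where 1d replicate 2 and 14d replicates 2 and 3 hold 3845, 2976 and 3697 counts of the 5p name and 0 of the 3p name. Among 147 hairpins with both arms named, miR-456 was the 1 with at most 1 count on one of its arms in every library although each arm reached 100 counts somewhere. Other hairpins turned in single libraries without meeting this rule. miR-204-5p had 0 counts in 28d replicate 3 and 2y replicate 1. The log2 ratios of miR-204 there were -6.63 and -7.97, and positive in the remaining libraries of both ages. miR-34a-5p had 738, 0 and 222 counts at 28d, beside 59, 64 and 15 of miR-34a-3p. miR-9619-5p had 2, 66 and 0, beside 134, 2 and 32 of miR-9619-3p. Summed over both miR-456 names, the counts at 2y were 1048, 893 and 997. The call that DESeq2 made for miR-456-5p (adjusted p = 4.51e-06) rests on 2y replicate 2.

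miR-140, a miRNA best known from cartilage, was among the DESeq2 calls on both arms (adjusted p = 0.0445 for each). miR-140-3p was at 4309, 3845 and 2921 CPM at 28d and 4804, 5026 and 5593 CPM at 2y. These values did not overlap, but with the total count alone the ages did. In edgeR the log2 fold change of miR-140-3p was 0.48 ± 0.23 (adjusted p = 0.397). miR-187-3p was at 5.22, 7.24 and 0 CPM at 28d and 22.0, 24.5 and 11.2 CPM at 2y. miR-210-3p, a miRNA induced by low oxygen in mammals, was at 25.2, 20.4 and 22.8 CPM at 28d and 12.4, 13.2 and 11.8 CPM at 2y (-0.87 ± 0.30, adjusted p = 0.282). miR-551b-3p was at 141, 299 and 294 CPM at 28d and 138, 69.2 and 91.3 CPM at 2y (-1.30 ± 0.58, adjusted p = 0.397), and its means at 1d and 14d were 12.2 and 51.8 CPM. These miRNAs were chosen after their values were seen.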
